A study of Mus musculus with 6 samples.

Results

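The integrated stress response and the unfolded protein response of the endoplasmic reticulum (ER) were followed through 10 genes, namely Atf4, Ddit3, Trib3, Asns, Chac1, Xbp1, Herpud1, Sesn2, Fgf21 and Gdf15. The genes were taken by their symbols from the 54532 rows of the deposited expression table, by a rule that uses no measured value although earlier results of these data were known when it was made, and 11 rows carried the 10 symbols. The hearts came from male littermates of 12 weeks on the C57B/6/N background, bred from heterozygous parents and fed standard chow, and 3 mice were WT while 3 were homozygous Mc4r knockouts (Mc4r-/-, Mc4r KO). The knockout is carried in the germ line and is not restricted to the heart, so the mice lack the melanocortin 4 receptor, a brain receptor known for its control of food intake, in every tissue. Polyadenylated RNA was sequenced with 1 library for each mouse. The values are FPKM, a count of read pairs on each gene that is scaled to gene length and to a factor for each library. Over genes detected in every library, the median ratio to the geometric mean of the libraries was 1.006 in all 6. The deposited values were thus already set to a common median ratio, which scaling to depth alone would not give.

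Cells slow protein synthesis when kinases phosphorylate the translation factor eIF2, and the mRNA of the transcription factor ATF4 is then translated more. ATF4 and its partner CHOP, the product of Ddit3, are known to switch on genes of amino acid supply, redox balance and feedback. The ER has several sensors of unfolded proteins, of which PERK feeds into eIF2, IRE1 splices the mRNA of Xbp1, and ATF6 is itself cut to release a transcription factor. Much of this control acts on translation and splicing, which gene-level mRNA values do not show. In the heart these pathways are known to respond to ischemia, nutrient stress and mitochondrial dysfunction, and the last of these is also known to release the hormones FGF21 and GDF15.

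The libraries held between 14691076 and 16047003 reads counted on genes. Mc4r itself was listed at 0 FPKM in 5 of the 6 libraries and at 0.0426 FPKM in WT replicate 3, so its level could not check the genotypes. Transcripts of the mitochondrial chromosome took 54.6% ± 6.57 of the summed FPKM in the WT mice and 44.4% ± 1.91 in the Mc4r KO mice (SD, n = 3 each), and an exact two-sided permutation test gave p = 0.1, the smallest that 3 mice against 3 allow. WT replicate 3 stood apart from the other WT libraries, with a correlation of 0.962 with Mc4r KO replicate 1 against 0.946 and 0.952 with the other WT libraries. The labels named the tissue as heart, with muscle in the titles, while the discussion of the study gives left ventricle as the sequenced tissue. The 8 cardiomyocyte markers, all detected, summed to between 13692 and 14726 FPKM in the WT mice. Their sum was between 17153 and 18912 FPKM in the Mc4r KO mice. The 6 fibroblast markers summed to between 201 and 213 FPKM in the WT mice and between 150 and 173 FPKM in the Mc4r KO mice. The 5 atrial markers reached 798 FPKM in WT replicate 3 and lay between 6.29 and 137 FPKM in the other libraries. How much atrial tissue each sample held was not tested. In such bulk tissue, fewer cells of a type and less RNA per cell cannot be told apart.

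ATF4 is known to bind C/EBP-ATF elements, in short CARE, and these letters were searched to show where the 10 genes could carry them near their start. The motif TGATGNAA on either strand was found in the promoter windows of Chac1, Trib3, Asns, Fgf21 and Herpud1, that is in 5 of the 10 genes and 5 of their 11 windows. Each window ran from 250 bases before to 50 bases after the start of the gene (RefSeq, GRCm38.p6), and the motif stood in 3.97% of all 32851 such windows. The matches upstream of the start are printed below with the motif in capitals and the flanking bases in lower case, read 5′ to 3′ on the strand of the gene.
Chac1 (chr2:119351029-119351076, plus strand): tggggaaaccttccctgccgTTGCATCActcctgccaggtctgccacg
Herpud1 (chr8:94386297-94386344, plus strand): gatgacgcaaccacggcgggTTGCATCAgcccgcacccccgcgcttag
Fgf21 (chr7:45615602-45615649, minus strand): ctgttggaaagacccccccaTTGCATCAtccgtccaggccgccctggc
Asns (chr6:7693210-7693252, minus strand): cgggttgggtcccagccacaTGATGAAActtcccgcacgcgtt

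Chac1, Herpud1 and Fgf21 carried the same 8 letters, and Asns carried the motif on the other strand, from 23 to 16 bases before the start. The match of Trib3 lay from 14 to 21 bases after its start and is not printed. The windows of Atf4, Ddit3, Xbp1, Sesn2 and Gdf15 held no match, which says only that these letters were not in these windows. The ER stress element (ERSE) was found in 0.119% of all windows and the element TGACGTGG in 0.676%, and neither was found in a window of the 10 genes. Only exact matches to 1 form of each element were searched, so other forms or positions were not covered.

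The levels of the 10 genes spread over a wide range in the heart, and the plot of levels by library shows that the order of the genes was much steadier than their differences between the groups. Herpud1, which encodes an ER membrane protein that helps to clear misfolded proteins, was the highest at 84.5 ± 6.58 FPKM in the WT mice and 104 ± 17.5 FPKM in the Mc4r KO mice (SD, n = 3 each, as for all means below). Atf4, Xbp1 and Ddit3 followed in that order, and each of these 4 genes was above the next in 6 of 6 libraries with no overlap of their ranges. Chac1, Trib3, Sesn2 and Asns lay between 0.612 and 4.11 FPKM, and neighbours in that order overlapped in range, although Chac1 was above Trib3 and Trib3 above Sesn2 within each of the 6 libraries. Sesn2 was above Asns in 5 of 6 libraries. Gdf15 was below Asns in 6 of 6 libraries without overlap, and the ranges of Gdf15 and Fgf21, the lowest of all, overlapped.

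**Figure D1:**
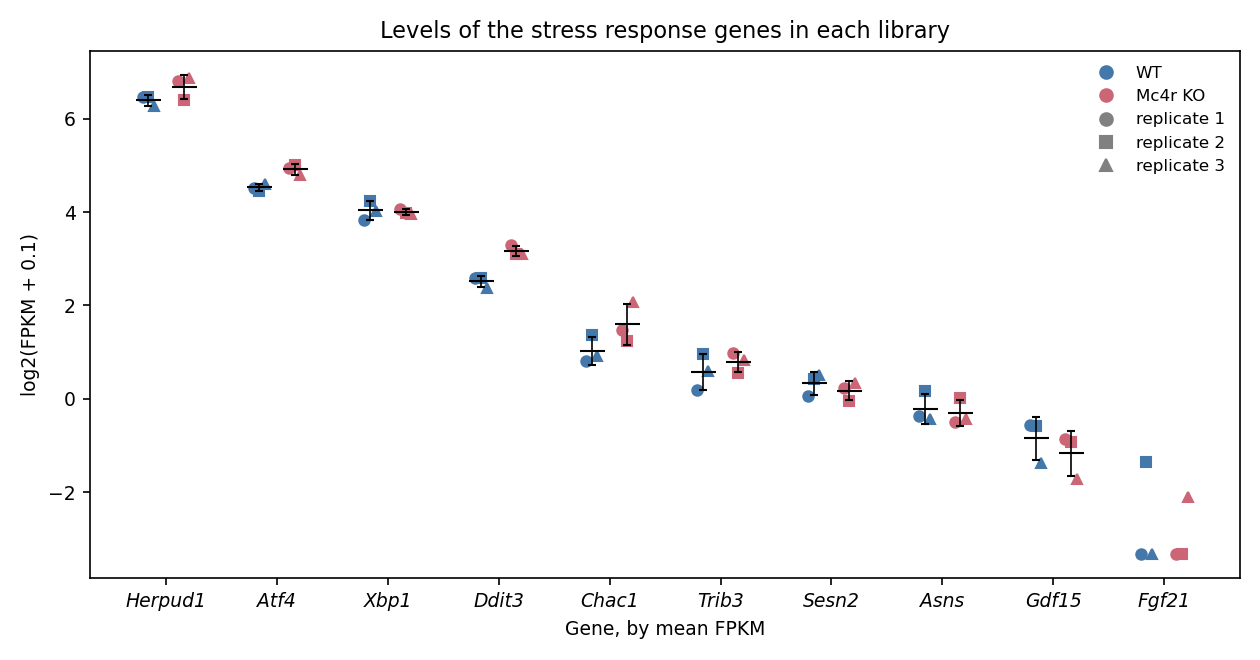
FPKM of each gene in each library, on the log2 scale after adding 0.1, with genes ordered by mean FPKM, WT in blue and Mc4r KO in red, symbols for replicates, and black bars for the mean and SD on that scale (none for Fgf21, which had few reads). Herpud1 lies near 100 FPKM and Fgf21 at or near 0, and Atf4 and Ddit3 have their 3 Mc4r KO points above their 3 WT points.

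The comparison of the Mc4r KO mice with the WT mice asks whether loss of the receptor went along with a change in these genes at this age. None of the 9 genes with enough reads passed the call, an adjusted p under 0.05 and a log2 fold change beyond 0.75 in either direction in limma (Benjamini-Hochberg adjustment over 18035 genes), a call that 0.460% of all genes tested passed. Atf4 and Ddit3 had an unadjusted p under 0.05, both with higher values in the Mc4r KO mice, and no gene of the 9 had one with lower values. Over all genes, 20.9% had an unadjusted p under 0.05, 12.0% with higher and 8.83% with lower values in the Mc4r KO mice. The median log2 fold change of the 9 genes was 0.21, beside -0.01 over all genes tested.

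Ddit3, the gene of CHOP, a transcription factor known to promote cell death in prolonged ER stress, was 5.88, 5.93 and 5.07 FPKM in WT replicates 1, 2 and 3 and 9.67, 8.45 and 8.51 FPKM in Mc4r KO replicates 1, 2 and 3. All 3 Mc4r KO mice were above all 3 WT mice, a pattern that 14.1% of all genes showed. The mean was 8.88 ± 0.683 against 5.63 ± 0.482 FPKM, 1.58 times as high, and the log2 fold change was 0.65 with an SE of 0.11 and a 95% interval from 0.40 to 0.90. The unadjusted p was 0.000445 in limma and the adjusted p 0.0554, just above the threshold, and by its p the gene ranked at 145 of 18035. The reads behind these values ranged from 142 to 148 in the WT mice and from 220 to 257 in the Mc4r KO mice.

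In limma, the adjusted p of Ddit3 was under 0.05 in 5 of 18 alternatives and ranged from 0.0226 to 0.227 over them. Its log2 fold change stayed between 0.46 and 0.81. Among the 18, it exceeded 0.75 only with the mitochondrial share as a covariate, where the adjusted p was 0.227, so the gene passed the call under no alternative. The lowest adjusted p of limma, 0.0226, was reached without WT replicate 3, with a log2 fold change of 0.58.

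Ddit3 lies on chromosome 10 (mm10, 127290774 to 127296288, plus strand), and 3.97% of its exonic bases also belong to exons of Mars on the other strand. The library kit named in the labels does not mark the strand, so reads from the shared bases of the overlapping genes cannot be told apart. Mars, the methionyl-tRNA synthetase, was also higher in all 3 Mc4r KO mice, at 7.42, 9.07 and 10.3 FPKM in the WT mice and 11.4, 11.04 and 11.6 FPKM in the Mc4r KO mice, and its part in the values of Ddit3 was not tested. A second row of the table under the symbol Ddit3, of 105 bases that all lie inside exons of the first, had 0 reads in every library.

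Atf4, the transcription factor at the centre of the integrated stress response, was 22.9, 22.0 and 24.2 FPKM in the WT mice and 30.8, 32.3 and 27.5 FPKM in the Mc4r KO mice. Again all 3 Mc4r KO mice were above all 3 WT mice, with Mc4r KO replicate 3 the closest to the WT range. The mean was 30.2 ± 2.46 against 23.0 ± 1.14 FPKM, 1.31 times as high, and the log2 fold change was 0.39 with an SE of 0.09 and a 95% interval from 0.17 to 0.60. The adjusted p was 0.0962 in limma (unadjusted 0.00356), and by its p the gene ranked at 667 of 18035. The reads ranged from 744 to 973 in the WT mice and from 1040 to 1157 in the Mc4r KO mice.

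The adjusted p of Atf4 was under 0.05 in 2 of 18 alternatives of limma, at 0.0426 with array weights and 0.0392 without WT replicate 3, and it ranged up to 0.462 over the others. With the libraries scaled to the sum outside the mitochondrial chromosome, all genes tested had a median log2 fold change of -0.19. Under that scaling Atf4 had a log2 fold change of 0.19 (unadjusted p = 0.0925 in limma) and Ddit3 one of 0.46 (unadjusted p = 0.0158 in limma). Of the 9 tested genes, 1 then had groups without overlap, against 2 before that scaling. The 2 fold changes lay 0.38 and 0.64 above that median, beside 0.40 and 0.66 before it. Scaling whole libraries moves nearly all genes by the same amount, so these distances are no check of the differences.

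The mitochondrial share and the summed levels of the cardiomyocyte and fibroblast markers separated the groups beside these values of Atf4 and Ddit3. Of the 8 cardiomyocyte markers, 5 had higher and 3 lower mean values in the Mc4r KO mice (log2 fold changes from -0.33 to 0.54), and of the 6 fibroblast markers 2 had higher and 4 lower ones (from -0.57 to 0.44). The part of these markers in the values of Atf4 and Ddit3 was not tested. With the mitochondrial share as a covariate in limma, Atf4 had a log2 fold change of 0.34 (unadjusted p = 0.0501, adjusted p = 0.462) and Ddit3 one of 0.81 (unadjusted p = 0.0018, adjusted p = 0.227). WT replicate 3 and Mc4r KO replicate 2 had nearly the same mitochondrial share, 47.1% and 46.6% of the summed FPKM. In this pair of libraries, chosen after their values were seen, Ddit3 was 5.07 against 8.45 FPKM and Atf4 was 24.2 against 32.3 FPKM. All 3 Mc4r KO mice were above all 3 WT mice for both genes, so any such pair would have this direction. WT replicate 3 was also the library with the highest atrial markers, and 1 library of each group allows no test.

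**Figure D2:**
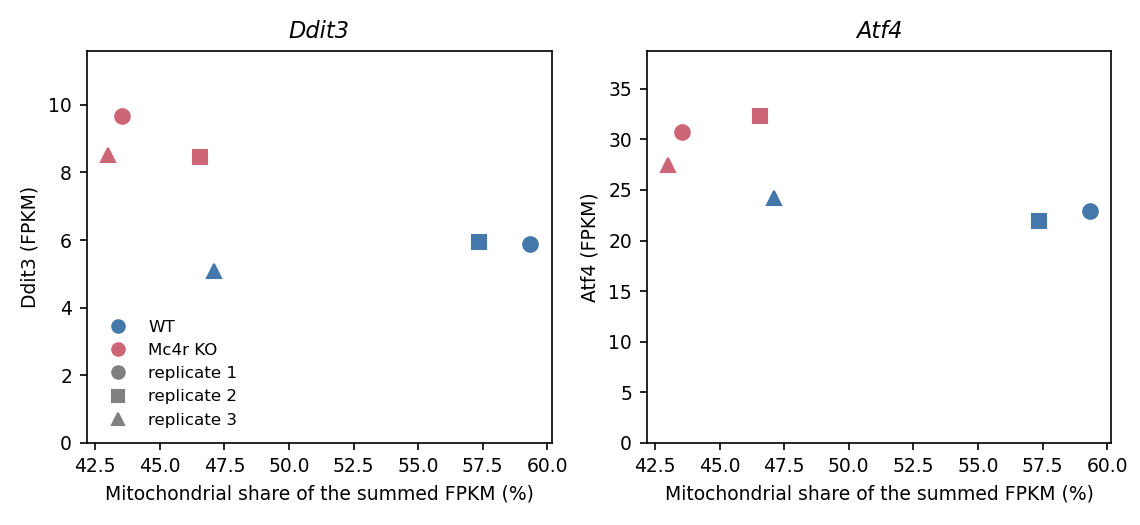
FPKM of Ddit3 (left) and Atf4 (right) against the percentage of the summed FPKM that lies on the mitochondrial chromosome, with 1 point for each library, WT in blue and Mc4r KO in red. The WT points span 47.1% to 59.3% and the Mc4r KO points 43.0% to 46.6%, and in both panels every red point is above every blue point.

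Xbp1, whose product is the transcription factor of the IRE1 branch, was 14.2, 18.8 and 16.3 FPKM in the WT mice and 16.7, 15.6 and 15.6 FPKM in the Mc4r KO mice. All 3 Mc4r KO values lay within the range of the WT values. The log2 fold change was -0.03 (SE 0.11, 95% interval from -0.30 to 0.23, adjusted p = 0.897 in limma). This is the total of both forms of the mRNA. IRE1 cuts within a pair of short loops of the Xbp1 mRNA, and removal of the bases between the cuts is the event that activates the factor. The stretch that holds both loops is shown with the letters of the loops (CNGCAGN) in capitals.
Xbp1 (transcript Xbp1-201, bases 812 to 844): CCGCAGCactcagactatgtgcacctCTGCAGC

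The loops start 26 bases apart, and the stretch was present in 3 of the 4 annotated transcripts (GENCODE M21). No annotated transcript had the 26 bases between the cuts removed. The same letters at the same spacing also stood at bases 455 to 487 of Xbp1-201, so the letters alone do not mark the site. Reads summed over the gene cannot tell the spliced form from the unspliced one, so the splicing of Xbp1 was not measured here. Plasma cells and B cells, which are known for high Xbp1, summed over 8 markers to between 4.15 and 7.17 FPKM in the WT mice and between 3.14 and 5.29 FPKM in the Mc4r KO mice.

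Herpud1, a target of both the ATF6 and the ATF4 branch whose promoter match is printed above, was 88.3, 88.2 and 76.9 FPKM in the WT mice and 112, 84.1 and 116 FPKM in the Mc4r KO mice. Mc4r KO replicate 2 lay within the WT range, and the other 2 Mc4r KO mice were above it. The log2 fold change was 0.29 (SE 0.14, 95% interval from -0.04 to 0.62, adjusted p = 0.291 in limma). Without Mc4r KO replicate 2 it was 0.44 with an adjusted p of 0.247 in limma.

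Chac1, an enzyme that degrades glutathione and a well known target of ATF4 and CHOP, was 1.65, 2.47 and 1.79 FPKM in the WT mice and 2.68, 2.25 and 4.11 FPKM in the Mc4r KO mice. The groups overlapped through WT replicate 2 and Mc4r KO replicate 2, and Mc4r KO replicate 3 was the highest of all. The log2 fold change was 0.57, close to that of Ddit3, but its SE was 0.25 and its 95% interval ran from -0.02 to 1.15 (adjusted p = 0.251 in limma). Without Mc4r KO replicate 3 the log2 fold change was 0.32, and without Mc4r KO replicate 2 it was 0.75 with an adjusted p of 0.311 in limma. Only 38 to 108 reads stood behind each value.

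Trib3, a pseudokinase that feeds back on ATF4 and CHOP, was 1.03, 1.83 and 1.41 FPKM in the WT mice and 1.88, 1.36 and 1.67 FPKM in the Mc4r KO mice. Its groups overlapped broadly, with a log2 fold change of 0.21 (SE 0.23, 95% interval from -0.32 to 0.74, adjusted p = 0.632 in limma), and it was 0.013 without WT replicate 1 and 0.40 without WT replicate 2. Asns, the asparagine synthetase, whose promoter match is printed above, was 0.674, 1.02 and 0.644 FPKM in the WT mice and 0.612, 0.915 and 0.638 FPKM in the Mc4r KO mice. Its log2 fold change was -0.09 (SE 0.25, 95% interval from -0.67 to 0.49, adjusted p = 0.869 in limma), and replicate 2 was the highest in both groups. Sesn2, a leucine sensor that restrains mTORC1, was 0.939, 1.24 and 1.33 FPKM in the WT mice and 1.08, 0.871 and 1.17 FPKM in the Mc4r KO mice. Its log2 fold change was -0.16 (SE 0.19, 95% interval from -0.61 to 0.30, adjusted p = 0.685 in limma). With 1 library left out it ranged from -0.30 without WT replicate 1 to -0.05 without Mc4r KO replicate 2. It was -0.51 with the mitochondrial share as a covariate and -0.33 with scaling outside the mitochondrial chromosome. The 95% intervals of Trib3, Asns and Sesn2 leave room for differences in either direction.

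**Figure D3:**
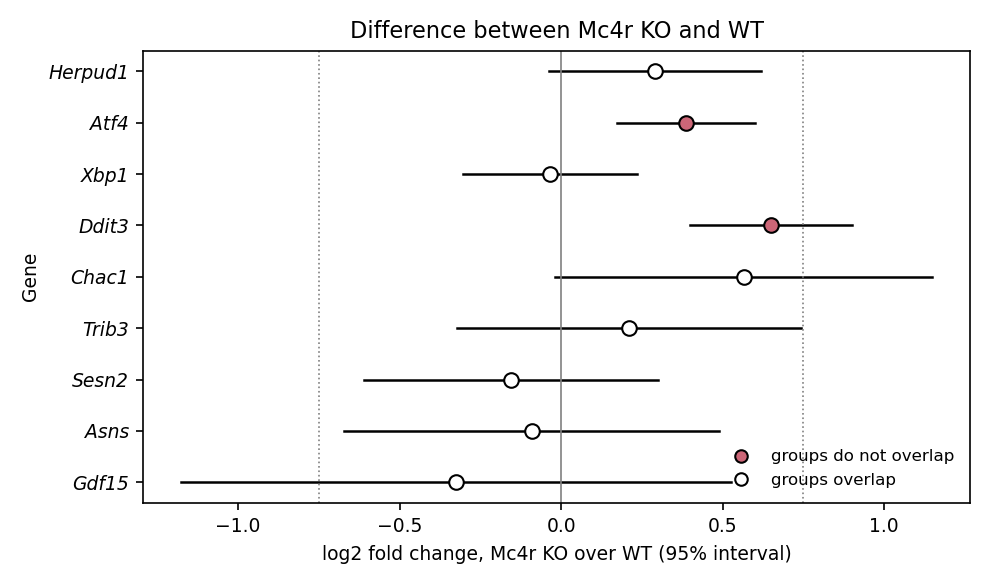
Log2 fold change of Mc4r KO over WT for the 9 tested genes, with points for the estimate of limma, lines for the 95% interval and dotted lines at 0.75 in either direction. Filled points mark Atf4 and Ddit3, whose groups do not overlap and whose intervals exclude 0, and the interval of Ddit3 runs from 0.40 to 0.90, past the dotted line.

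The genes of the hormones were barely expressed in these hearts. Gdf15 was 0.574, 0.564 and 0.285 FPKM in the WT mice and 0.452, 0.426 and 0.202 FPKM in the Mc4r KO mice, from 6 to 15 reads in each library. Replicate 3 was the lowest in both groups and the groups overlapped, with a log2 fold change of -0.32 (SE 0.36, 95% interval from -1.18 to 0.53, adjusted p = 0.645 in limma). With 1 library left out it ranged from -0.59 without WT replicate 3 to -0.05 without Mc4r KO replicate 3. Fgf21 had 0, 4 and 0 reads in WT replicates 1, 2 and 3 and 0, 0 and 2 reads in Mc4r KO replicates 1, 2 and 3. At this depth a count of 0 allows up to 3 reads, which is between 0.185 and 0.224 FPKM for Fgf21, so no difference was detectable and no fold is given. The 6 adipocyte markers, of which 2 were at 0 in every library, summed to between 0.466 and 1.02 FPKM in the WT mice and between 0.0283 and 0.328 FPKM in the Mc4r KO mice.

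The receptors of these hormones were a separate list of 7 genes, of which 3 had enough reads. Fgfr3 was 1.34, 1.73 and 1.82 FPKM in the WT mice and 3.31, 3.17 and 2.59 FPKM in the Mc4r KO mice, with a log2 fold change of 0.86 (adjusted p = 0.0696 in limma), and 13.9% of its exonic bases are shared with a gene on the other strand. All 3 Mc4r KO mice were above the WT mice for Fgfr3, while Fgfr1 (-0.07) and Ret (-0.10) differed by less than their SE of 0.12 and 0.23. Gfral, the brainstem receptor of GDF15, had 0 reads in every library.

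Around the 10 genes, 11 lists of pathway genes held 162 further genes, of which 148 were tested. None passed the call, and 29 of them, 19.6%, had an unadjusted p under 0.05, close to the share of all genes. Of these, 19 had higher and 10 had lower values in the Mc4r KO mice, and the median log2 fold change of the 148 was 0.04. Without WT replicate 3, 4 of the 148 passed the call in limma, namely Atf3, Cebpb, Ddit4 and Fgfr3. In that fit 726 of all genes tested passed it, so these 4 do not set the lists apart.

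Upstream of Atf4, the list of eIF2 kinases, eIF2 subunits and regulators had 19 tested genes, of which 3 had an unadjusted p under 0.05 with higher and 2 with lower values. The 4 kinases are given here for their role and outside the rule for named genes, and Eif2ak3 (PERK), Eif2ak1 and Eif2ak4 had log2 fold changes of -0.09, 0.03 and -0.09. Eif2ak2 (PKR), the kinase known for sensing double-stranded RNA, was 3.61, 2.52 and 3.01 FPKM in the WT mice and 2.49, 2.19 and 2.04 FPKM in the Mc4r KO mice, with a log2 fold change of -0.42 (95% interval from -0.79 to -0.04, unadjusted p = 0.0345, adjusted p = 0.207 in limma). Eif2b4, a subunit of the exchange factor that reloads eIF2, was 10.9, 12.5 and 12.1 FPKM in the WT mice and 17.2, 20.4 and 17.1 FPKM in the Mc4r KO mice, with a log2 fold change of 0.61 (adjusted p = 0.0579 in limma, the smallest in all lists), and 7.85% of its exonic bases overlap Snx17 on the other strand. Ppp1r15a (GADD34), the phosphatase subunit that ends eIF2 phosphorylation and is induced through ATF4 and CHOP, was 4.11, 5.64 and 5.62 FPKM against 7.33, 7.75 and 7.58 FPKM, with a log2 fold change of 0.57 (adjusted p = 0.0999 in limma). Impact, an inhibitor of the kinase GCN2, had the opposite sign at -0.52 (adjusted p = 0.0996 in limma). Eif2b4, Ppp1r15a and Impact had groups that did not overlap, and the same was true of Eif2ak2, narrowly. In the whole list of 19, 6 genes with higher and 2 with lower values had no overlap. Over all genes the share with higher values was 14.1%, and the share with lower values was not counted.

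Among the 15 tested partners and stress-induced targets of ATF4, 2 had an unadjusted p under 0.05 in each direction. Atf5, a transcription factor that is controlled in the same way as ATF4, was 12.3, 15.6 and 14.8 FPKM in the WT mice and 20.98, 25.6 and 20.1 FPKM in the Mc4r KO mice, with a log2 fold change of 0.63 (adjusted p = 0.0766 in limma) close to that of Ddit3. Atf3, another stress-induced factor downstream of ATF4, went the other way, at 5.79, 4.69 and 3.11 FPKM against 2.72, 2.57 and 2.31 FPKM, with a log2 fold change of -0.77 (adjusted p = 0.124 in limma). Ddit4 (REDD1), an inhibitor of mTORC1, was 25.9, 22.6 and 45.8 FPKM against 65.1, 44.8 and 67.7 FPKM, with a log2 fold change of 0.96 (adjusted p = 0.13 in limma) and an overlap through WT replicate 3. Thus Ddit3 and Atf5 had higher values and Atf3 lower values in the same Mc4r KO libraries. The summed level of 7 immediate early genes, which are known to respond to tissue handling as Atf3 does, was between 60.9 and 68.6 FPKM in the WT mice and between 49.96 and 62.1 FPKM in the Mc4r KO mice, and its part in the value of Atf3 was not tested.

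None of the genes of amino acid supply, many of which are known targets of ATF4 like Asns, passed the call. Of 20 tested genes of amino acid synthesis, one-carbon metabolism and transport, 1 had an unadjusted p under 0.05 in each direction, Got1 at 0.53 (adjusted p = 0.0756 in limma) and Aldh1l2 at -0.52 (adjusted p = 0.223 in limma, with 14.1% of its exonic bases shared with a gene on the other strand). Of the 13 aminoacyl-tRNA synthetases, 4 had an unadjusted p under 0.05 all with higher values in the Mc4r KO mice and no overlap, beside the 12.0% and 14.1% of all genes given above, among them Wars at 0.39 (adjusted p = 0.0763 in limma), Aars at 0.42 (adjusted p = 0.135 in limma) and Mars at 0.35 (adjusted p = 0.185 in limma). Aars shares 14.3% of its exonic bases with Exosc6. The median over the 13 was 0.05, so most of the other synthetases lay near 0.

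In the ER branch, 1 of the 12 tested sensors and processing genes had an unadjusted p under 0.05, Tmbim6, an ER membrane protein that restrains IRE1, at 0.24 (adjusted p = 0.216 in limma). The IRE1 gene Ern1 (-0.08) and Atf6 (0.24), given for their role, had an unadjusted p above 0.05. Of 20 ER chaperones and folding enzymes, Creld2 was higher at 0.54 (adjusted p = 0.147 in limma) and Canx and Hsp90b1 were lower at -0.33 and -0.29 (adjusted p = 0.123 and 0.173 in limma) by unadjusted p, and Hsp90b1 shares 10.3% of its exonic bases with a gene on the other strand. Hspa5 (BiP), the chaperone most used as a marker of the unfolded protein response and given for that role, was 92.1, 114 and 95.2 FPKM in the WT mice and 96.9, 106 and 109 FPKM in the Mc4r KO mice, with a log2 fold change of 0.05 and a 95% interval from -0.20 to 0.30. Hspa5, like Xbp1, showed overlapping groups, and the median over the 20 chaperones was 0.0046. Of the 16 tested genes of ER-associated degradation, the pathway of Herpud1, Derl1 was higher at 0.28 and Erlec1 lower at -0.41 by unadjusted p (adjusted p = 0.137 and 0.191 in limma).

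The mitochondrial unfolded protein response, which ATF4 and ATF5 are also known to serve, had 11 tested genes with a median log2 fold change of 0.14. Lonp1, a protease of the mitochondrial matrix, was 27.5, 29.2 and 30.4 FPKM in the WT mice and 35.7, 35.1 and 35.8 FPKM in the Mc4r KO mice, with a log2 fold change of 0.29 (adjusted p = 0.107 in limma). Afg3l2 was at 0.22 and Clpx at -0.24, both with an unadjusted p under 0.05 (adjusted p = 0.234 and 0.211 in limma). Among 11 tested targets of NRF2, a partner of ATF4 in redox control, Nfe2l2, the gene of NRF2 itself, was lower at -0.45 (adjusted p = 0.0766 in limma), while Mafg and Txnrd1 were higher at 0.38 and 0.32 (adjusted p = 0.131 and 0.146 in limma). None of the 8 tested close relatives of the 10 genes had an unadjusted p under 0.05.

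**Figure D4:**
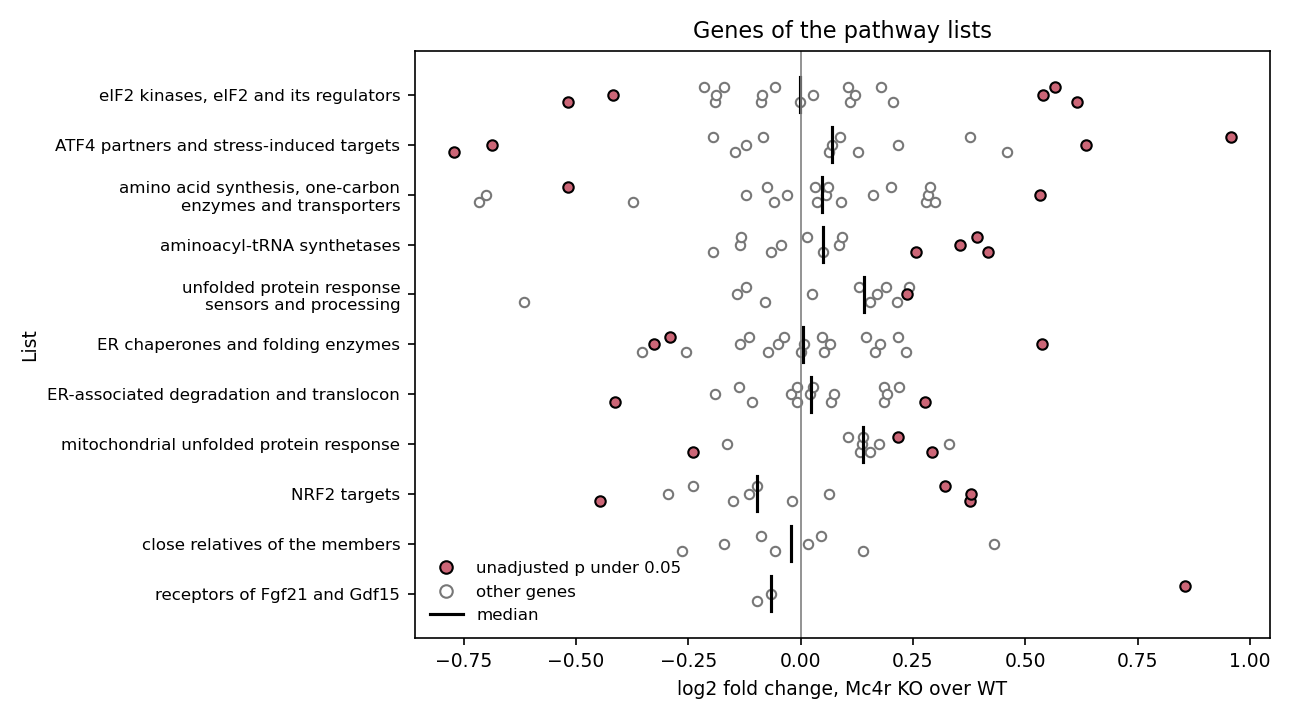
Log2 fold change of Mc4r KO over WT for every tested gene of the 11 lists, with 1 row of points for each list, filled points for an unadjusted p under 0.05 and black bars for the median of the list. Points lie on both sides of 0 in every list, and the medians lie between -0.10 and 0.14.

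The differences of Ddit3, Atf4, Chac1, Herpud1, Trib3 and Sesn2 kept their sign in the 18 alternatives of processing, while those of Xbp1, Asns and Gdf15 did not. Ddit3 and Atf4 had the smallest p as reported. Chac1 ranged from 0.32 to 0.75 and Herpud1 from 0.09 to 0.44 on the log2 scale.

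**Figure D5:**
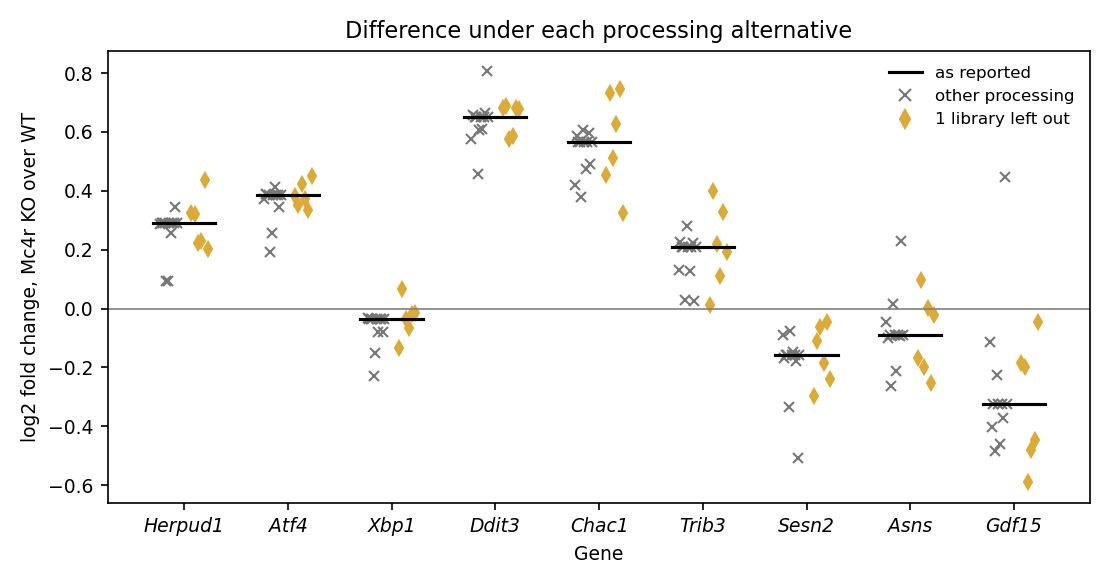
Log2 fold change of Mc4r KO over WT for the 9 tested genes as reported (black bars), under 12 other ways of processing (grey crosses) and with 1 of the 6 libraries left out (yellow diamonds). The points of Ddit3 lie between 0.46 and 0.81 and those of Atf4 between 0.19 and 0.45, while those of Xbp1, Asns and Gdf15 lie on both sides of 0.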

How the data were processed

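Hearts of 3 WT and 3 Mc4r KO mice were analysed, 1 library each. The authors aligned read pairs with HISAT2 (2.0.5) to mm10 per the labels, counted reads on genes with featureCounts and deposited FPKM for each gene and library, beside gene length and position. The annotation release is not given in the sources used here, but 99.8% of identifiers were found in GENCODE M21. The FPKM times the deposited gene length gave whole reads for 100% of values (tolerance 0.05 reads), and 3 reads on a gene of 1 kb were 0.176 to 0.213 FPKM. Floors in reads cover counting error only, while the 95% intervals of limma are for the group difference and take in the spread between mice.

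The members and gene lists were chosen with earlier results of these data known. Tests covered the 18035 genes whose mean FPKM reached 0.1 and used limma 3.58.1 (R 4.3.3) on log2(FPKM + 0.1), with a trend and no covariate, two-sided, adjusted over all genes. The unit is FPKM, so limma took the place of the count model of the study. Fold changes are on this scale, which understates low genes. A call needed an adjusted p below 0.05 together with a log2 fold change of more than 0.75 in either direction. The named genes are the 10 members, and in each list those called or else the 3 with the smallest unadjusted p under 0.05. Since each library is 1 mouse, the p-values set the difference of the group means against the spread between mice and their libraries, moderated over all genes. The replicate numbers showed no sign of pairing the libraries, and the litter of each mouse is not given in the sources used here. The script was tested on simulated data. Alternatives were pseudocounts of 1 and 0.01, no filter, a mean FPKM of at least 1, scaling outside the mitochondrial chromosome, quantile normalization, no trend, array weights, a replicate block, limma voom on the recovered reads, the mitochondrial share as a covariate, protein-coding genes only, and leaving out each library. Exonic overlaps and shared words of 50 bases were searched in M21. Figures were drawn with matplotlib 3.10.9.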

Additional observations from a re-analysis of the deposited data

How the results depend on the processing

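Of 160 log2 fold changes of single genes over 18 alternatives, 154 kept their direction and 6 changed sign, and no gene passed or lost the joint call on adjusted p and fold change. On the adjusted p alone, Ddit3 was under 0.05 in 5 alternatives and Atf4 in 2. Asns turned to 0.014 with quantile normalization, 0.23 with the mitochondrial share as a covariate, 0.096 without WT replicate 2 and 0.0029 without Mc4r KO replicate 1, and ranged from -0.25 to 0.096 with 1 library left out. Xbp1 turned to 0.067 without WT replicate 2, within a range from -0.13 to 0.067 with 1 library left out, and Gdf15 to 0.45 with the mitochondrial share as a covariate. The cause of these changes was not tested.

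None of the 10 genes was called under any alternative. The genes of the set with an unadjusted p under 0.05 fell from 2 to 1 with scaling outside the mitochondrial chromosome and with the mitochondrial share as a covariate. They ranged from 2 to 4 with 1 library left out. Over all genes tested, such a p was held by 3761 with all libraries and by 2517 to 5060 with 1 left out. The genes of the set without overlap fell to 1 with scaling outside the mitochondrial chromosome, which also moved the median log2 fold change of the set from 0.21 to 0.027. With 1 library left out they ranged from 2 to 5, and the median ranged from 0.013 to 0.33. Groups of 2 and 3 libraries part more readily, and the share of all genes without overlap in those fits was not counted. Of the pathway genes, 1 was called with a mean FPKM of at least 1, beside 147 of all genes. With array weights 3 were called beside 435 of all genes, and with limma voom 2 beside 317. Among protein-coding genes 1 was called beside 204. With 1 library left out, 0 to 4 were called, beside 7 to 726 of all genes.

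The count of all genes called moved more, and it was 83 in the limma fit reported here, which is not the count of the study with DESeq2. The count here was 44 with a pseudocount of 1, 22 with no filter, 147 with a mean FPKM of at least 1, 41 with scaling outside the mitochondrial chromosome, 49 with quantile normalization, 21 without the trend, 435 with array weights, 317 with limma voom, 2 with the mitochondrial share as a covariate and 204 among protein-coding genes. With 1 library left out it ranged from 7 to 726, the highest without WT replicate 3. Same-numbered libraries deviated from their group means with correlations of -0.14, 0.01 and -0.08. These values showed no pairing by number, but so few values cannot exclude one. With the replicate number as a block, 11 genes were called and none of the 10.

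Low reads limited Gdf15 and Fgf21, and 3 mice in each group limited every comparison.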

Other observations

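Over the 6 libraries, the genes moved together in part. Atf4 and Ddit3 had a correlation of 0.86 on the log2 scale, but once the group means were taken out it was -0.26. Herpud1 and Chac1 had 0.82 over all libraries and 0.67 within the groups, and Xbp1 and Trib3 had 0.81 and 0.94, both of them being highest among the WT mice in WT replicate 2. These values describe 6 libraries that share their groups and differ in mitochondrial share, and no test was made of them. Among the 5585 genes whose mean FPKM reached 5, the profiles most like that of Atf4 were those of Klhdc10 (correlation 0.995), Atp6v1b2 (0.994) and Plekhb2 (0.992). Those most like Ddit3 were Slc6a6 (0.994), Snap47 (0.988) and Psmc4 (0.987).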
